A study of Mus musculus with 24 samples.

Results

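Tumours given radiation plus olaparib were compared, 3 coded EIO from SCC7 cells that overexpress miR-21-5p and 3 coded IO from SCC7 cells with an empty vector. They were chosen by the letters of the coded tumour identifier and are 6 of the 24 tumours of the study: EIO-713, EIO-744 and EIO-749 against IO-726, IO-728 and IO-731. SCC7 is a mouse squamous cell carcinoma line, and all tumours grew under the skin of the flank of female C3H mice aged 6 to 8 weeks, from about 1000000 injected cells each. Mice were treated once tumours averaged about 300 cubic millimetres. All 6 tumours received X-rays of 8 Gy per day on 3 days together with olaparib at 50 mg/kg, injected into the abdomen 2 h before each irradiation and once more on the day after the last. The other 18 tumours form the coded groups S and ES (sham), I and EI (radiation alone) and O and EO (olaparib alone), where a leading E marks miR-21-5p overexpression. The promoter that drives the microRNA, the vector type and the number of clones are not given in the sources used here.

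The written labels name other groups than the codes. Code and written label agreed for 5 of the 24 tumours, and for 1 of the 6 compared here, EIO-713. The written labels put EIO-749 among vector sham tumours, EIO-744 among vector tumours with radiation plus olaparib, IO-726 among vector tumours with radiation, IO-728 among vector sham tumours and IO-731 among miR-21-5p tumours with radiation plus olaparib. Every direction below holds for the groups as coded, and under the written labels EIO-744 would stand on the vector side. Cdkn1a, the p53 target that encodes the cell cycle inhibitor p21, gives one check of the radiation part of the code. Its level was 682 to 765 CPM (counts per 1000000, scaled by the TMM method) in the 6 tumours. In all 12 tumours coded as irradiated it ran from 332 to 765 CPM, with the second lowest at 603. In the 12 coded as not irradiated it ran from 184 to 342 CPM. The lowest irradiated tumour, I-739, lay below O-723 at 342 CPM, so the coded ranges overlapped. By the written labels the irradiated tumours ran from 229 to 765 CPM and the others from 184 to 761.5 CPM. Mdm2, another p53 target, was at 139 CPM in EIO-744 and at 270 to 675 CPM in the other tumours coded as irradiated. In those coded as not irradiated it ran from 94.6 to 327 CPM. EIO-744 lay within their range by Mdm2, and so did I-739 at 270 CPM and EI-752 at 306 CPM. Mdm2 therefore did not separate the coded groups. Cdkn1a does not check the olaparib part of the code, because it ran from 332 to 764 CPM in EI and I. The miR-21-5p part has no such check either, because the mature microRNA was not analysed here.

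MicroRNAs are short RNAs that guide the Argonaute proteins to messenger RNAs, mostly through pairing of the seed, bases 2 to 8, with the 3′ UTR, and they lower the amount or the translation of those messages. MiR-21-5p is abundant in many carcinomas and is known for repressing tumour suppressor messages such as Pdcd4. Olaparib inhibits the PARP enzymes, which act at DNA breaks and also take part in alternative end joining, an error-prone repair route that uses DNA polymerase theta and DNA ligase 3. The study's title places miR-21-5p, alternative end joining and radiation resistance together, so the comparison asks how tumours with the microRNA differ from vector tumours when radiation and a PARP inhibitor are given together.

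The mature mouse microRNA and sites for it are shown because the target genes below are read against them. The microRNA is mmu-miR-21a-5p, at chr11:86584120-86584141 on the minus strand of GRCm38.p6, inside the host gene Vmp1, from RefSeq, with its seed in capitals. Below it stand stretches that end at the seed match in the longest annotated 3′ UTR (GENCODE, GRCm38) of 6 genes known as its targets, with the match ATAAGCT or, where an A follows, ATAAGCTA in capitals. They lie at chr19:53929418-53929439 (plus strand, Pdcd4), chr3:37643859-37643880 (plus, Spry1), chr14:105892498-105892519 (minus, Spry2), chr4:43944393-43944414 (plus, Reck), chr10:86348213-86348234 (plus, Timp3) and chr12:8497719-8497739 (minus, Rhob).
mmu-miR-21a-5p: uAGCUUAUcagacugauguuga
Pdcd4: gtgtgggtgttctgATAAGCTA
Spry1: atgtaagtgcttaaATAAGCTA
Spry2: gagacccacattgcATAAGCTA
Reck: ttttacagtttgaaATAAGCTA
Timp3: tttttgagctttcaATAAGCTA
Rhob: tacataagagttctATAAGCT
The UTRs used for Btg2 and Tpm1, also known as targets, hold neither form of the match.

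The table holds raw counts for 27368 genes. The 6 tumours had 38073224 to 40004502 counted reads each, so depth differed little among them. Replicates are separate tumours, and p-values measure the spread between tumours. In whole tumours, fewer cells of a type and less RNA per cell cannot be told apart.

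EIO-744 stood apart from the other 5 tumours. Genes named as collagens took 11.4% of its counts, while in the other 23 tumours of the study they took 0.489% to 1.21%. Its most abundant gene was Col3a1, a fibrillar collagen of soft tissue, with 3.51% of counts, and its 10 most abundant genes took 15.3% of counts. The root-mean-square log2 difference across genes was 1.18 to 1.43 between EIO-744 and each of the other 5, and 0.416 to 0.647 among those 5. In EIO-744, 839 genes lay more than 4-fold above each of the other 5 tumours and 265 more than 4-fold below each of them. By the same count EIO-713, EIO-749 and the IO tumours had at most 4 genes above and 6 below. The 2 remaining EIO tumours differed from each other by 0.479, and the IO pairs by 0.452 to 0.526. EIO-713 lay at 0.416 to 0.522 from the IO tumours, about as far as tumours within a group. EIO-749 lay at 0.585 to 0.647 from them, farther than any of these pairs within a group. Because EIO-744 stood apart, each result is given with it and without it.

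The gene lists show what EIO-744 held. Its summed level of 29 collagen and matrix genes was 180950 CPM, against 14100 and 16131 CPM in the other EIO tumours and 14293 to 19647 CPM in the IO tumours. Its 20 fibroblast markers summed to 142340 CPM against 6618 to 9853 CPM in the other 5, and its 22 skeletal muscle markers to 7039 CPM against 149 to 1662 CPM. The sums of endothelial markers (2700 CPM against 360 to 576 CPM) and of pericyte and smooth muscle markers (1381 CPM against 230 to 314 CPM) were also highest in EIO-744. Cspg4, a member of the pericyte list, went the other way, at 20.3 CPM in EIO-744 against 67.9 to 208 CPM. Mitosis genes were at the other extreme, with 177 CPM in EIO-744 against 1657 to 3247 CPM in the other 5. The same held for cytotoxic cell markers, with 52.8 CPM against 405 to 1676 CPM. The summed level of p53 target genes did not set EIO-744 apart, with 3794 CPM among values of 3479 to 4189 CPM. Single members of that list did, in both directions. Mdm2 was at 139 CPM in EIO-744 against 439 to 675 CPM in the other 5, and Btg2 at 374 CPM against 32.0 to 61.2 CPM.

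**Figure D1:**
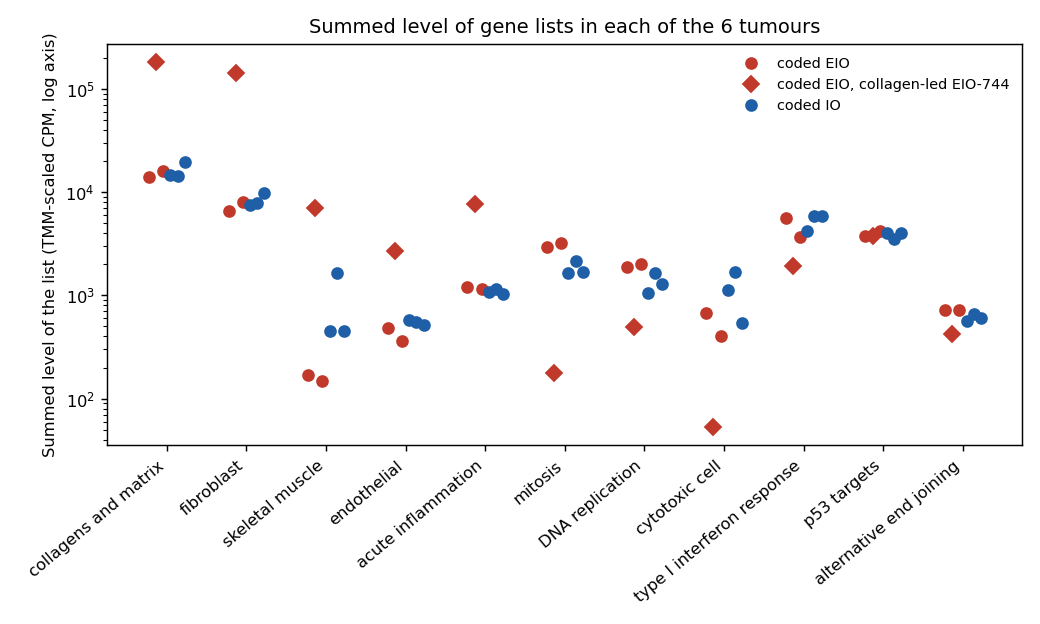
Summed TMM-scaled CPM (log axis) of 11 gene lists in each of the 6 tumours, 1 point per tumour, red for EIO (diamond for EIO-744) and blue for IO. EIO-744 lies far above the others in collagens and matrix (180950 CPM) and lowest in mitosis (177 CPM), while p53 targets fall between 3479 and 4189 CPM in all 6.

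With all 3 EIO tumours, no gene passed the test. Of 16560 genes tested by the edgeR quasi-likelihood test, 0 had an adjusted p below 0.05 (0% called), and the lowest adjusted p was 0.310. At an unadjusted p below 0.05 there were 1669 genes (10.1%), 1173 higher (7.08%) and 496 lower (3%) in EIO, and the DESeq2 Wald test called 138, 120 higher and 18 lower. Leaving out EIO-713 gave 235 calls, leaving out EIO-744 3, leaving out EIO-749 or IO-728 1 each, and leaving out IO-726 or IO-731 0. The median log2 fold change over all tested genes was 0.03. In 552 genes (3.33%) every EIO tumour lay above every IO tumour, and in 4.58% of genes every one lay below. The genes that follow are those with the smallest unadjusted p among genes whose groups did not overlap, and their differences are values that did not pass, with 5 described on the higher side and 6 on the lower.

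Ackr3, a chemokine receptor that scavenges CXCL12, was at 86.5, 409 and 73.6 CPM in EIO-713, EIO-744 and EIO-749 and at 33.9, 50.4 and 35.5 CPM in IO-726, IO-728 and IO-731. Its log2 fold change was 2.25 (SE 0.44, edgeR adjusted p = 0.310), and 1.03 (SE 0.21, edgeR adjusted p = 0.124) without EIO-744. All EIO tumours were above all IO tumours, and the 2 without collagen excess lay closer to IO than to EIO-744. Ccn3, a secreted matrix-associated protein, was at 10.1, 137 and 17.5 CPM in EIO and 7.73, 7.13 and 9.60 CPM in IO. Its log2 fold change fell from 2.75 (SE 0.60) to 0.79 (SE 0.23) without EIO-744. Col12a1, a collagen that sits on fibrils, was at 23.7, 1658 and 37.6 CPM in EIO and 14.2, 22.4 and 22.2 CPM in IO, so that most of its log2 fold change of 4.87 (SE 1.08) came with EIO-744 (0.68, SE 0.42 without it). Brinp3 and Cfi were nearly silent in IO. Brinp3 was at 0.103 to 0.150 CPM in IO and at 0.371, 6.75 and 1.49 CPM in EIO. Cfi, the complement protease factor I, was at 0.0249 to 0.103 CPM in IO and at 1.70, 5.54 and 0.943 CPM in EIO, with log2 fold changes of 5.44 (SE 1.21) and, without EIO-744, 4.42 (SE 1.15). At these low levels a fitted fold change depends on few reads.

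The 6 genes on the lower side had log2 fold changes of -0.51 to -2.68 with EIO-744 and of -0.42 to -2.75 without it. Slc2a3, the glucose transporter GLUT3, was at 12.4, 7.70 and 8.88 CPM in EIO and 20.5, 18.6 and 16.6 CPM in IO. Its log2 fold change was -0.94 (SE 0.22) with EIO-744 and -0.78 (SE 0.23) without it. Angptl7, a secreted angiopoietin-like protein, was at 21.6, 19.1 and 10.5 CPM in EIO and 148, 25.7 and 154 CPM in IO, where IO-728 lay close to the EIO tumours. Ero1b, an oxidase of disulfide bond formation in the endoplasmic reticulum, was at 19.1 to 23.3 CPM in EIO and 28.2 to 31.7 CPM in IO (log2 fold change -0.51, SE 0.13). Sh2d1b1, an adaptor of natural killer cell receptors, was at 0.471 to 0.981 CPM in EIO and 2.14 to 2.66 CPM in IO. Ankef1 was at 0.285 to 0.546 CPM in EIO and 1.16 to 1.60 CPM in IO, and the zinc finger gene Zfp58 at 3.47 to 4.30 CPM in EIO and 5.28 to 8.15 CPM in IO. All 6 had an edgeR adjusted p of 0.310.

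**Figure D2:**
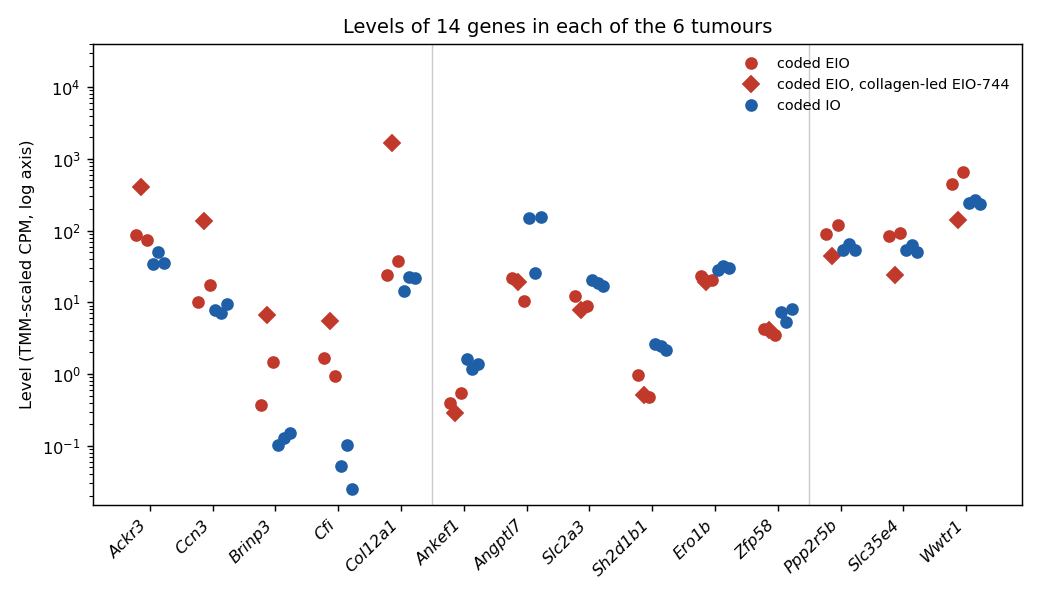
TMM-scaled CPM (log axis) of 14 genes in each of the 6 tumours, red for EIO (diamond for EIO-744) and blue for IO. The first 5 genes are higher and the next 6 lower genes of the comparison with all tumours, and the last 3 are further genes with a small p without EIO-744, whose groups overlap when it is kept (Ppp2r5b 43.9 CPM in EIO-744 against 53.8 to 65.4 CPM in IO).

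Without EIO-744, 3 genes were higher in the 2 remaining EIO tumours than in IO and none was lower. They are 0.0178% of the 16893 genes tested, and 2057 genes (12.2%) had an unadjusted p below 0.05, 1223 higher (7.24%) and 834 lower (4.94%). Of the 3 higher genes, 2 are described here. Ppp2r5b, a regulatory subunit of protein phosphatase 2A (chr19:6227765-6236264), was at 90.4 and 120 CPM in EIO and 53.8, 65.4 and 54.4 CPM in IO, a log2 fold change of 0.89 (SE 0.14, edgeR adjusted p = 0.0451). Slc35e4, a solute carrier of the family of nucleotide sugar transporters (chr11:3907022-3914664), was at 84.4 and 91.5 CPM in EIO and 53.2, 63.8 and 50.2 CPM in IO, a log2 fold change of 0.69 (SE 0.11, edgeR adjusted p = 0.0451). In EIO-744 these 2 genes were at 43.9 and 24.2 CPM, below every IO tumour. Positions are those of RefSeq on GRCm38.p6.

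The 3 calls sat close to the threshold. With DESeq2 size factors, with no filter on low counts or with the 5 tumours alone in the fit, 0 genes were called, while the DESeq2 Wald test called 201 and limma voom with sample quality weights 138, both genes described here among them each time. A further tumour left out gave 0 calls without EIO-749, IO-726 or IO-731, 5 without EIO-713 and 93 without IO-728. Next in order came Wwtr1, the Hippo pathway coactivator TAZ, at 442 and 658 CPM in EIO and 245, 265 and 235 CPM in IO (log2 fold change 1.18, SE 0.21, edgeR adjusted p = 0.0869), with 140 CPM in EIO-744. The actin-associated adaptor Afap1l2 was at 127 and 148 CPM against 64.5 to 73.7 CPM, and the proteoglycan Cspg4 at 155 and 208 CPM against 67.9 to 101 CPM (edgeR adjusted p = 0.124 for both). In EIO-744 they were at 17.6 and 20.3 CPM. On the lower side the sorting receptor Sorl1 was at 10.3 and 5.33 CPM in EIO and 19.7 to 36.8 CPM in IO, and Lratd2 at 3.85 and 3.47 CPM against 6.91 to 8.73 CPM. The zinc finger genes Zfp420 and Zfp760, the pseudokinase Nrbp2 and Mfng, a glycosyltransferase that acts on Notch receptors, had log2 fold changes of -0.99, -1.06, -1.71 and -0.997 without EIO-744. None of these passed the test, and EIO-744 lay above the other EIO tumours in all 6 of these lower genes.

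In the whole study, these 2 genes stood at like levels in EI. Ppp2r5b was at 90.5 to 109 CPM in EI and at 41.8 to 64.5 CPM in the 15 tumours of S, ES, I, O and EO. Slc35e4 was at 74.7 to 92.0 CPM in EI and at no more than 56.7 CPM in I, but reached 77.5 CPM in S. The log2 fold change of EI against I, which shares no tumour with the comparison of EIO and IO, was 0.68 (SE 0.22, edgeR adjusted p = 0.138) for Ppp2r5b and 0.62 (SE 0.28, edgeR adjusted p = 0.245) for Slc35e4. In sham tumours the values of ES against S were -0.30 and -0.25, and under olaparib alone those of EO against O were 0.28 and -0.34. The proliferation marker Mki67 was at 113, 175 and 110 CPM in IO and 198, 21.6 and 233 CPM in EIO. It was at 365 to 459 CPM in S, ES, O and EO, so every tumour of the 6 lay below every unirradiated tumour. Under radiation alone, Mki67 was at 167 to 335 CPM in EI, 115 CPM in I-736 and 72.4 CPM in I-732. In I-739 it was at 380 CPM, within the range of the unirradiated tumours. I-739 enters every value of EI against I given here.

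**Figure D3:**
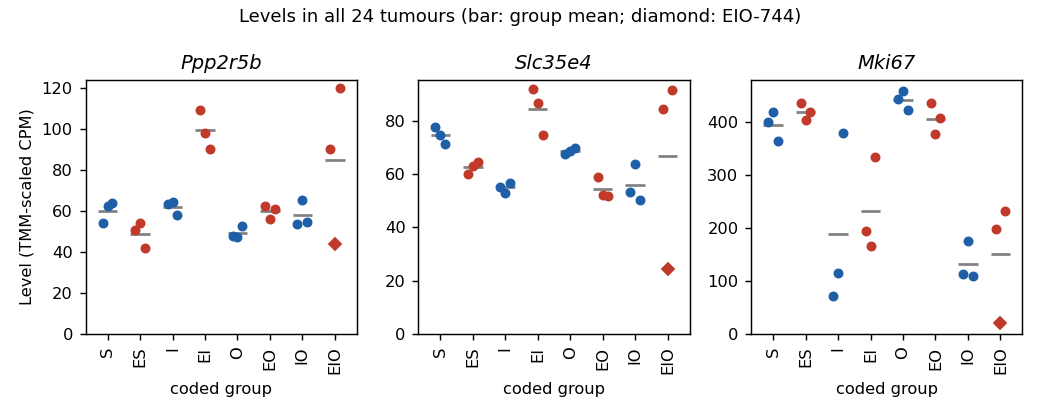
TMM-scaled CPM of 3 genes in all 24 tumours by coded group, blue for vector and red for miR-21-5p, with the group mean as a bar and EIO-744 as a diamond. Ppp2r5b and Slc35e4 are higher in EI and in the 2 other EIO tumours than in I and IO, and Mki67 lies between 21.6 and 233 CPM in the 6 tumours given both treatments.

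No gene passed the test of whether the difference between EIO and IO was unlike that under other treatments. The difference was tested against the mean of ES against S, EI against I and EO against O, which called 0 of 16560 genes (0%; lowest edgeR adjusted p 0.564, 1317 genes or 7.95% at an unadjusted p below 0.05, 5 called by DESeq2). Against EI minus I alone it also called 0 (0%; lowest edgeR adjusted p 0.376, 1647 or 9.95% at an unadjusted p below 0.05, 55 called by DESeq2). Without EIO-744 both tests again called 0 genes by edgeR, with 924 (5.47%) and 467 (2.76%) at an unadjusted p below 0.05. For Ppp2r5b, the difference without EIO-744 was 0.67 (SE 0.16) above the mean of the other 3 treatments and 0.20 (SE 0.19) above that under radiation alone. The corresponding values were 0.67 (SE 0.13) and 0.06 (SE 0.15) for Slc35e4, with edgeR adjusted p-values of 0.763 and above. For comparison, EI against I called 14 genes (0.0845% of those tested). Timp1, an inhibitor of matrix metalloproteinases, was among the 14 (log2 fold change 1.59, SE 0.25, edgeR adjusted p = 0.0198). In the 6 tumours Timp1 was at 154, 140 and 164 CPM in EIO and 51.2, 119 and 65.7 CPM in IO (0.95, SE 0.25, edgeR adjusted p = 0.310), without overlap.

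Cell division genes were higher in EIO-713 and EIO-749 than in IO, none of them past the test. The 34 mitosis genes summed to 2949 CPM in EIO-713 and 3247 CPM in EIO-749, and to 1657, 2174 and 1696 CPM in the IO tumours. Without EIO-744 all 34 had a log2 fold change above 0, with a median of 0.78 against -0.02 over all tested genes. In 33 of the 34 both EIO tumours lay above all IO tumours, where the share among all genes was 16.3%. At an unadjusted p below 0.05 there were 17 of 34, where the share of all genes was 7.24%, and 0 at an adjusted p below 0.05. Cenpa, the histone variant that marks centromeres, was at 68.9 and 78.0 CPM in EIO and 42.0, 37.1 and 35.8 CPM in IO (log2 fold change 0.97, SE 0.30, edgeR adjusted p = 0.267). Ccnb2, the mitotic cyclin B2, was at 63.5 and 59.7 CPM in EIO and 30.0, 33.3 and 29.7 CPM in IO (1.02, SE 0.34). Kif2c, a kinesin that depolymerizes microtubules at centromeres, was at 46.5 and 49.8 CPM in EIO and 22.6, 28.4 and 22.9 CPM in IO (1.00, SE 0.35). In EIO-744 these genes were at 9.53, 1.74 and 3.86 CPM, so that with it the groups overlapped for every gene of the list and the median was 0.21.

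DNA replication genes followed the same order. They summed to 1861 and 1995 CPM in EIO-713 and EIO-749, to 1064, 1642 and 1289 CPM in IO and to 493 CPM in EIO-744. Without EIO-744 all 35 lay above 0 (median 0.57), 32 without overlap (16.3% of all genes on that side), 6 at an unadjusted p below 0.05 (7.24% of all genes on that side) and 0 at an adjusted p below 0.05. Gins2, a subunit of the replicative helicase, was at 19.8 and 22.8 CPM in EIO and 11.0, 16.3 and 12.5 CPM in IO. Pola2, a subunit of the polymerase that primes synthesis, was at 35.6 and 29.0 CPM in EIO and 18.8, 26.5 and 20.9 CPM in IO. IO-728 was the highest IO tumour in both. The whole list sums in the 18 other tumours ran from 833 to 3699 CPM for replication and from 846 to 4960 CPM for mitosis, so the 5 tumours lay within that range. These genes share a cell cycle programme, so their number is not a number of independent observations.

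Alternative end joining genes, the subject named in the study's title, did not differ past the test. Of 20 members 0 were called in either fit, and the median log2 fold change was 0.04 with EIO-744 and 0.23 without it. Polq, DNA polymerase theta, was at 6.07, 1.01 and 7.02 CPM in EIO-713, EIO-744 and EIO-749 and at 3.48, 5.48 and 4.51 CPM in IO. Its log2 fold change was 0.07 (95% confidence interval -1.09 to 1.23) with EIO-744 and 0.57 (-0.42 to 1.56) without it. Parp1, the main target of olaparib, was at 88.0, 56.9 and 77.6 CPM in EIO and 61.4, 87.9 and 71.1 CPM in IO, with overlapping groups. Its log2 fold change was 0.01 (-0.50 to 0.53) and 0.20 (-0.35 to 0.75). Lig3, DNA ligase 3, was at 29.1, 28.1 and 38.7 CPM in EIO and 31.6, 35.3 and 30.2 CPM in IO (-0.02, -0.41 to 0.37, and 0.10, -0.34 to 0.54). These intervals leave room for changes of either sign, most of all for Polq. Without EIO-744, 11 of the 20 members were higher in both EIO tumours than in all IO tumours, and 1 was lower in both, where the shares of all genes were 16.3% and 16.8%. At an unadjusted p below 0.05, 3 were higher (7.24% of all genes) and 0 lower (4.94%). The nuclease subunit gene Ercc1 was at 57.2 and 41.4 CPM against 26.0 to 35.1 CPM (0.75, SE 0.20, edgeR adjusted p = 0.173), and Nbn, of the complex that senses breaks, at 37.7 and 39.9 CPM against 28.6 to 30.4 CPM (0.42, SE 0.14). The helicase Wrn was on the other side, at 33.4, 20.6 and 26.2 CPM in EIO and 37.6, 36.7 and 42.7 CPM in IO (-0.54, SE 0.23, edgeR adjusted p = 0.446).

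No member of the other repair lists or of the p53 list was called. Classical end joining had a median of -0.09 over 18 genes with EIO-744 and 0.06 without it. Dclre1c, the nuclease Artemis, had the smallest p of that list (-0.64, SE 0.29). Homologous recombination genes had medians of 0.03 and, without EIO-744, 0.39, with 13 of 23 above all IO tumours in the latter (16.3% of all genes). Xrcc3, which acts in strand exchange, was at 1.72, 1.71 and 1.89 CPM in EIO and 1.03, 1.60 and 1.37 CPM in IO. Palb2, the partner of BRCA2, was at 6.36, 1.90 and 4.57 CPM in EIO and 6.08, 5.97 and 5.06 CPM in IO. The 35 p53 targets had medians of 0.01 and 0.04. Cdkn1a was at 744.8, 756.3 and 761.5 CPM in EIO and 713.1, 682 and 765 CPM in IO (0.07, -0.43 to 0.56). Mdm2, which degrades p53, was at 444, 139 and 675 CPM in EIO and 439 to 457 CPM in IO. Rrm2b, the p53-induced ribonucleotide reductase subunit, was at 19.8 to 28.7 CPM in EIO and 25.8 to 34.5 CPM in IO. The proapoptotic gene Bbc3 (PUMA) was at 26.5, 23.1 and 11.6 CPM in EIO and 21.7 to 34.4 CPM in IO.

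**Figure D4:**
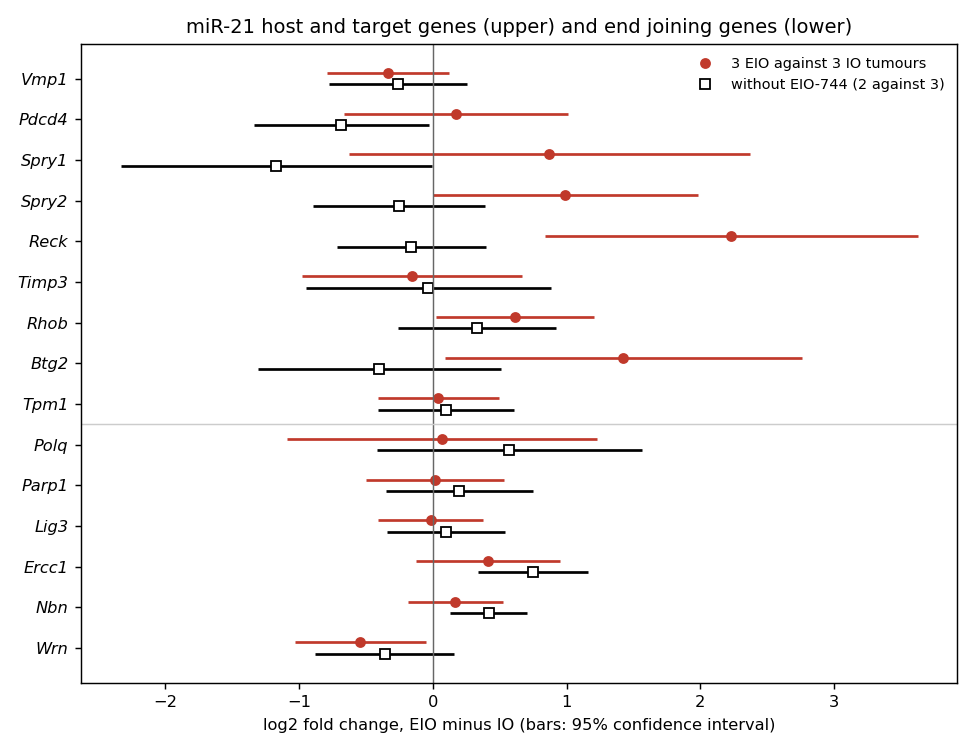
Log2 fold change of EIO against IO with its 95% confidence interval for the miR-21 host and target genes and for 6 end joining genes, in red for all 6 tumours and in black without EIO-744. Reck moves from 2.23 to -0.16 and Pdcd4 from 0.17 to -0.69 when EIO-744 is left out, while Parp1 and Lig3 stay within 0.20 of 0.

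No gene known as a target of miR-21-5p passed the test. Of 40 targets from the literature 39 were tested and 0 were called, with 10 higher and 1 lower at an unadjusted p below 0.05, where the shares of all genes were 7.08% and 3%. Without EIO-744, 3 were higher and 4 lower at that p, where the shares of all genes were 7.24% and 4.94%. Above 0 lay 25 of the 39 with that tumour and 15 without it. Their median log2 fold change was 0.17 with EIO-744 and -0.09 without it, beside 0.03 and -0.02 over all genes. Pdcd4, an inhibitor of translation and the best known target, was at 23.7 and 22.0 CPM in EIO-713 and EIO-749, at 80.9 CPM in EIO-744 and at 43.0, 26.2 and 43.1 CPM in IO. It was lowest in the 2 EIO tumours and highest in EIO-744, and its log2 fold change was 0.17 (SE 0.40, edgeR adjusted p = 0.956) with that tumour and -0.69 (SE 0.31, edgeR adjusted p = 0.396) without it. Spry1, an inhibitor of receptor tyrosine kinase signalling, had the same order, at 2.55, 22.4 and 1.69 CPM in EIO and 5.83, 3.73 and 4.98 CPM in IO. Its relative Spry2 was at 9.52, 50.8 and 9.83 CPM in EIO and 8.87, 16.2 and 10.2 CPM in IO. Reck, a membrane inhibitor of metalloproteinases, was at 5.97, 91.3 and 7.00 CPM in EIO and 7.14, 6.87 and 8.15 CPM in IO, so that its log2 fold change of 2.23 (SE 0.66) came with EIO-744 alone. Timp3, an inhibitor of the same enzymes, was at 762.6, 613 and 761.7 CPM in EIO and 874, 711 and 799 CPM in IO. Rhob, a small GTPase, was at 405, 655 and 361 CPM in EIO and 326, 298 and 306 CPM in IO, higher in every EIO tumour (0.61, SE 0.28, edgeR adjusted p = 0.472).

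Further listed targets and the host gene gave these values. Btg2, an antiproliferative gene that also responds early to stress, was at 53.1, 374 and 32.0 CPM in EIO and 57.4, 52.5 and 61.2 CPM in IO. The actin-binding tropomyosin Tpm1 was at 448 to 593 CPM in EIO and 404 to 551 CPM in IO. Smad7, an inhibitor of TGF-beta signalling and a listed target, was at 25.4, 25.6 and 24.7 CPM in EIO and 11.6, 20.9 and 14.6 CPM in IO, above IO in all 3 tumours (0.69, SE 0.23, edgeR adjusted p = 0.323). Tgfbi, a secreted protein induced by TGF-beta, was at 560, 806 and 779 CPM in EIO and 393, 606 and 459 CPM in IO (0.56, SE 0.18, edgeR adjusted p = 0.320). The host gene Vmp1, which acts in autophagy, was at 271, 246 and 270 CPM in EIO and 439, 237 and 317 CPM in IO (-0.33, -0.79 to 0.12). Vmp1 reads do not show microRNA made from a vector.

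Genes with a seed match and genes without one were set side by side over the whole table. Of 14622 protein-coding genes tested, 14366 (98.2%) had an annotated 3′ UTR, and 1102 of those (7.67%) held ATAAGCT or ATAAGCTA, searched on the transcript strand in the longest UTR. Their median log2 fold change was 0.03 with EIO-744, and it was 0.03 for the 13264 genes without a match. Above 0 lay 53.9% of the former and 54.1% of the latter. Without EIO-744 the medians were -0.06 and -0.02, and 43.9% and 47.7% lay above 0. In that comparison 92 genes with a match (8.35%) and 660 without one (4.98%) were lower at an unadjusted p below 0.05, and 76 (6.90%) and 1036 (7.81%) were higher. For the 326 genes with the 8-base match the median was 0.07 with EIO-744 and -0.09 without it, where 42.0% lay above 0 and 30 (9.20%) were lower and 29 (8.90%) higher at that p. These shares were not tested against each other. The UTRs with a match were longer, with a median of 2748 bases against 1050.5 without one, and this was not adjusted for.

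Matrix genes were high in EIO-744, and most of the collagen and matrix list overlapped between the groups without it. Of 29 collagen and matrix genes 28 had a log2 fold change above 0, with a median of 1.89, and 23 were higher at an unadjusted p below 0.05 (7.08% of all genes), but in only 2 did all EIO tumours lie above all IO tumours (3.33% of all genes). Without EIO-744 the median was 0.07 and 0 had an unadjusted p below 0.05. In that comparison 2 were without overlap on the higher side and 1 on the lower (16.3% and 16.8% of all genes). Col1a1, the main fibrillar collagen, was at 899, 43295 and 873 CPM in EIO and 309, 1269 and 1216 CPM in IO. Col3a1 was at 1641, 43604 and 1774 CPM in EIO and 2172, 2008 and 2969 CPM in IO. For both collagens the other 2 EIO tumours lay within or below the IO range. The matrix glycoprotein Tnc was at 26.7, 821 and 64.5 CPM in EIO and 4.18, 32.0 and 21.9 CPM in IO, and the collagen-crosslinking enzyme gene Loxl2 at 9.97, 496 and 12.8 CPM against 2.81 to 14.6 CPM. Of 19 matrix protease genes (median 1.05), 13 were higher at an unadjusted p below 0.05 (7.08% of all genes). In 5 of them every EIO tumour lay above every IO tumour (3.33% of all genes). Without EIO-744 (median 0.13), 6 were higher and 1 lower at that p, where the shares of all genes were 7.24% and 4.94%. In that comparison 6 lay above all IO tumours and 3 below, where the shares of all genes were 16.3% and 16.8%. The stromelysin Mmp3 was at 17.0, 1521 and 24.2 CPM in EIO and 6.14 to 41.5 CPM in IO, and the collagenase Mmp13 at 5.99, 276 and 10.7 CPM in EIO and 1.16, 5.95 and 1.72 CPM in IO. Among 23 TGF-beta and activin genes (medians 0.49 and 0.00) Inhba, the activin A subunit, was at 54.0, 22.2 and 76.2 CPM in EIO and 18.0, 32.4 and 25.1 CPM in IO (1.40, SE 0.38, edgeR adjusted p = 0.185 without EIO-744). None of the 3 lists had a called member.

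Acute inflammation and immediate early genes also had their highest sums in EIO-744. The 24 inflammation genes summed to 7626 CPM in EIO-744 and to 1028 to 1192 CPM in the other 5 tumours (medians 1.20 and, without EIO-744, 0.22). In 7 of the 24 every EIO tumour lay above every IO tumour (3.33% of all genes). Without EIO-744, 8 were above and 3 below without overlap, where the shares of all genes were 16.3% and 16.8%. Cxcl5, a chemokine that attracts neutrophils, was at 2.15, 242 and 1.69 CPM in EIO and 0.335 to 1.00 CPM in IO. Il6, a cytokine of the acute phase, was at 1.91, 32.8 and 1.71 CPM in EIO and 0.129, 0.644 and 0.0498 CPM in IO, so it was higher in every EIO tumour (log2 fold change 2.74, SE 1.06, edgeR adjusted p = 0.337 without EIO-744). Il1b was at 6.79, 188 and 1.91 CPM in EIO and 1.31, 6.18 and 4.16 CPM in IO. The 16 immediate early genes, which respond within minutes to stimuli and to tissue handling, summed to 13112 CPM in EIO-744 against 1257 to 1851 CPM in the other 5 (medians 1.61 and 0.05). Of these 16 genes, 2 had every EIO tumour above every IO tumour (3.33% of all genes). Among them Egr1 was at 1445 CPM in EIO-744 against 41.2 to 73.3 CPM, and Fosb at 913 CPM against 5.36 to 34.3 CPM.

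Immune lists were lower on median in EIO, with wide overlap. The 29 interferon response genes all had a log2 fold change below 0 with EIO-744 (median -0.51) and 10 lay above 0 without it (median -0.15). Their sums were 5554, 1922 and 3691 CPM in EIO and 4210, 5820 and 5928 CPM in IO. Trim30a was at 194, 116 and 124 CPM in EIO and 196, 228 and 257 CPM in IO, and Parp14 at 256, 139 and 150 CPM in EIO and 231, 324 and 324 CPM in IO, where EIO-713 lay close to or within the IO values. All 20 antigen presentation genes lay below 0 in both fits (medians -0.39 and -0.20), none of them without overlap or with an unadjusted p below 0.05. Psmb8, a subunit of the immunoproteasome, was at 422, 183 and 257 CPM in EIO and 344, 438 and 468 CPM in IO. The 18 immune checkpoint genes had medians of -0.52 and -0.54. The receptors Pdcd1 (15.3, 1.05 and 4.81 CPM in EIO, 14.9 to 29.5 CPM in IO) and Lag3 (19.0, 3.36 and 4.69 CPM in EIO, 17.4 to 24.97 CPM in IO) were low in EIO-744 and EIO-749 and within the IO range in EIO-713. The ligand Cd276 (B7-H3) was at 8.88, 66.2 and 13.0 CPM in EIO and 5.77 to 10.5 CPM in IO. No member of these 3 lists was called in either fit.

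Cytotoxic cell markers were below 0 in all 17 tested genes in both fits (medians -1.25 and -0.87). They summed to 681, 52.8 and 405 CPM in EIO and 1131, 1676 and 539 CPM in IO. Without EIO-744, 1 of the 17 lay below every IO tumour, where the share of all genes was 16.8%. At an unadjusted p below 0.05, 1 was lower in that fit (4.94% of all genes). The natural killer receptor Klrb1c was at 1.70, 0.950 and 0.720 CPM in EIO and 4.15, 5.66 and 1.87 CPM in IO, the only member without overlap (log2 fold change -1.79, SE 0.57, edgeR adjusted p = 0.311). Among all genes, 4.58% had every EIO tumour below every IO tumour. Klrd1, another receptor of these cells, was at 16.8, 2.85 and 3.65 CPM in EIO and 16.5, 19.5 and 28.2 CPM in IO. The 18 T cell markers had medians of -0.49 and -0.57, with sums of 191, 110 and 50.3 CPM in EIO and 112, 162 and 244 CPM in IO. Without EIO-744, 2 of the 18 lay below all IO tumours and 1 above, where the shares of all genes were 16.8% and 16.3%. At an unadjusted p below 0.05, 1 was lower in that fit (4.94% of all genes). The costimulatory receptor Cd28 was at 6.34, 3.07 and 1.14 CPM in EIO and 6.50 to 11.0 CPM in IO. Macrophage and monocyte markers summed to 19481, 18738 and 10091 CPM in EIO and 24498, 16829 and 18494 CPM in IO. Single macrophage genes went different ways. Cx3cr1, the fractalkine receptor, was at 103, 1.52 and 21.8 CPM in EIO and 8.25 to 20.9 CPM in IO, highest in EIO-713. Arg1, an enzyme that consumes arginine, was at 35.4, 75.4 and 152 CPM in EIO and 10.3 to 64.6 CPM in IO, highest in EIO-749. The scavenger receptor Cd163 was at 15.8, 365 and 18.2 CPM in EIO and 13.4 to 32.7 CPM in IO. The 14 neutrophil markers summed to 199, 580 and 261 CPM in EIO and 178, 213 and 150 CPM in IO, highest in EIO-744. Of the 11 tested, 8 lay above 0 with EIO-744 (median 0.85) and 3 without it (median -1.25). In 0 of them did every EIO tumour lie above every IO tumour (3.33% of all genes). Single members stood out more in EIO-744, with S100a9 at 167 CPM against 0.530 to 4.36 CPM and Cxcr2 at 31.8 CPM against 0.273 to 0.723 CPM in the other 5. Dendritic cell markers summed to 882 to 955 CPM in EIO and 887 to 1024 CPM in IO (medians -0.03 and -0.23). Medians with and without EIO-744 were 0.44 and -0.84 for B and plasma cells, -0.19 and -1.20 for mast cells and -1.16 and -1.14 for erythroid genes. The 8 mast cell markers summed to 195, 662 and 94.4 CPM in EIO and 212, 183 and 589 CPM in IO. EIO-744 and IO-731 were thus highest, and with EIO-744 left out IO-731 alone had them at such levels.

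Markers of tissue around the tumour differed between tumours of both groups. Skeletal muscle markers summed to 170, 7039 and 149 CPM in EIO-713, EIO-744 and EIO-749 and to 450, 1662 and 454 CPM in IO. Without EIO-744, 20 of the 22 lay below every IO tumour (median -3.72, share of all genes below without overlap 16.8%), and 7 were lower at an unadjusted p below 0.05 (4.94% of all genes). Myh1, a fast myosin heavy chain, was at 5.73, 1125 and 2.95 CPM in EIO and 59.5, 33.5 and 69.9 CPM in IO. Adipocyte markers summed to 217, 2500 and 192 CPM in EIO and 196, 909 and 395 CPM in IO, and Fabp4, a fatty acid carrier of fat cells and vessels, was at 36.2, 654 and 59.6 CPM in EIO and 112 to 136 CPM in IO. Of 17 endothelial markers, 12 lay below every IO tumour without EIO-744 (median -0.49, share of all genes 16.8%). At an unadjusted p below 0.05, 1 of them was lower (4.94% of all genes). Kdr, the main VEGF receptor, was at 14.5, 139 and 11.9 CPM in EIO and 13.9 to 26.1 CPM in IO. The pericyte marker Rgs5 was at 49.5, 371 and 42.6 CPM in EIO and 30.7 to 54.2 CPM in IO. Schwann cell markers summed to 212 to 623 CPM in EIO and 223 to 257 CPM in IO. No marker list had a member at 0 in all 6 tumours or a called member, and the part of these tissues in the differences above was not tested.

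The squamous label rests on few markers here. The basal integrins Itga6 (223, 90.8 and 233 CPM in EIO, 75.2, 163 and 92.2 CPM in IO) and Itgb4 (413, 59.3 and 444 CPM in EIO, 175, 301 and 215 CPM in IO) were present in all 6. The basal keratin Krt5 was at 107 CPM in EIO-744 and 89.2 CPM in IO-731 and at 0.0796 to 2.56 CPM in the other 4, and its partner Krt14 at 78.0 and 97.8 CPM against 0.155 to 3.25 CPM. Trp63, the transcription factor of basal keratinocytes, was at 7.79 CPM in EIO-744, 4.96 CPM in IO-731 and 0.0530 to 0.980 CPM in the others. Keratinocyte differentiation genes summed to 299 CPM in EIO-744, 518 CPM in IO-731 and 18.3 to 34.7 CPM in the other 4. Lor, a protein of the cornified layer, was at 42.4 and 41.5 CPM in those 2 tumours and at 0 to 0.819 CPM in the others. Thus 1 tumour of each group held these keratinocyte genes. With EIO-744 left out IO-731 alone had them at such levels, and the medians in that fit were -3.97 for basal and -4.46 for differentiation genes. Krt16, a keratin of activated epidermis, did not follow that order, at 6.58, 0.570 and 5.43 CPM in EIO and 1.57, 7.59 and 22.6 CPM in IO.

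Of the metabolic and drug-related lists, hypoxia and glycolysis lay farthest above the median of all genes without EIO-744, which was -0.02 (0.03 with that tumour). Its 26 genes had medians of 0.19 and 0.33, with EIO-749 highest at 8610 CPM. Without EIO-744, 20 of the 26 lay above 0 and 7 were higher at an unadjusted p below 0.05, where the share of all genes was 7.24%. In only 1 did both EIO tumours lie above all IO tumours (16.3% of all genes). The 23 cholesterol synthesis genes had medians of 0.03 and 0.21. Without EIO-744, 19 of them lay above 0 and 9 were without overlap on the higher side, where the share of all genes was 16.3%. NRF2 targets had medians of 0.10 and -0.06, and among them Akr1b8, an aldo-keto reductase, was at 90.9, 45.5 and 119 CPM in EIO and 50.3, 77.9 and 49.9 CPM in IO. Drug efflux genes had medians of 0.05 and 0.14, and Abcg2, an efflux pump, was at 11.2, 48.2 and 7.34 CPM in EIO and 9.99 to 17.0 CPM in IO. EGF receptor genes and ligands had medians of 0.20 and -0.28, and the ligand Areg was at 5.01, 0.823 and 5.63 CPM in EIO and 0.799, 3.66 and 1.47 CPM in IO. The 20 ribosomal protein genes had medians of 0.09 and 0.23 and summed to 17354, 14247 and 19077 CPM in EIO and 15450 to 16005 CPM in IO. Without EIO-744, 19 of the 20 lay above 0 and 14 above all IO tumours, where the share of all genes was 16.3%. At an unadjusted p below 0.05 there were 0. The 20 respiratory chain genes had medians of 0.14 and 0.22 and sums of 3342 to 3945 CPM in EIO and 3089 to 3593 CPM in IO. Without EIO-744, 6 lay above all IO tumours and 2 below, where the shares of all genes were 16.3% and 16.8%. None of these lists had a called member in either fit.

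**Figure D5:**
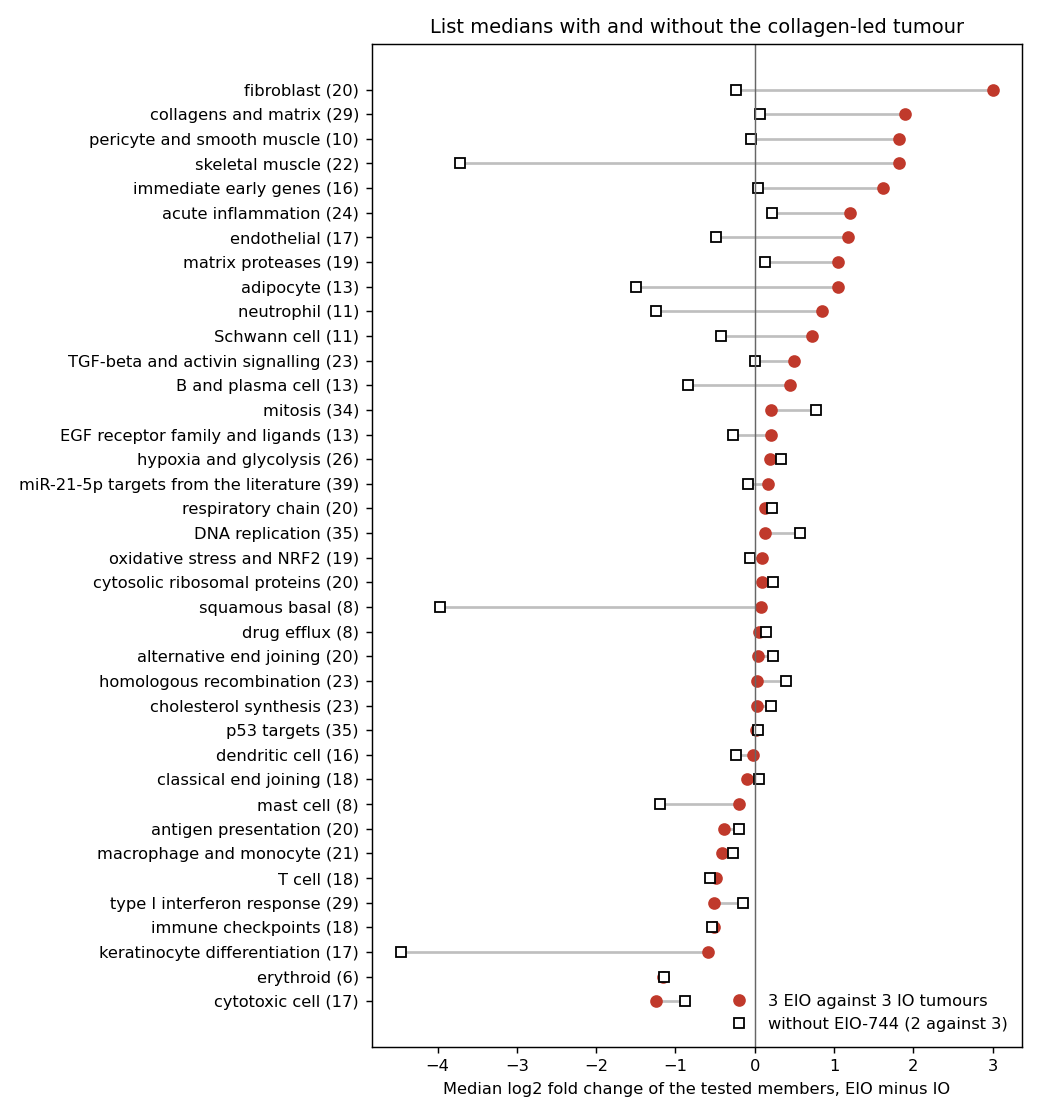
Median log2 fold change of EIO against IO for 38 gene lists, with the number of tested genes in parentheses, in red for all 6 tumours and as open squares without EIO-744. Fibroblast markers move from 3.00 to -0.23 and skeletal muscle markers from 1.81 to -3.72, mitosis genes from 0.21 to 0.78, and p53 targets stay near 0.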

How the data were processed

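RNA was taken from whole tumours in TRIzol and libraries were made with the VAHTS Universal V5 kit, per the labels' protocols. Reads were handled with fastp, HISAT2 and HTSeq on mm10, per the submitters' processing notes, and versions, gene annotation and strand setting are not given in the sources used here. The table deposited by the authors holds raw counts per gene, with no normalization. Without a stated strand setting, reads of overlapping, antisense or near-identical genes cannot be assigned with certainty. Read counts without molecular identifiers are not independent molecules, and replicate tumours set the precision.

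Counts were tested with edgeR 4.0.16 in R 4.3.3 (TMM scaling, filterByExpr, quasi-likelihood F-test, all 24 tumours in the 8 coded groups, Benjamini-Hochberg adjustment, call at 0.05). The groups follow the identifier's letters, whose meaning the batch label gives. That batch label repeats treatment and cell line and is no technical batch. The fit was repeated without EIO-744, chosen as the EIO tumour with the largest share of counts in collagen genes. Levels are TMM-scaled CPM, and an SE is that of the log2 fold change. Named genes were up to 10 called genes in each direction, filled to 6 by the smallest p among genes without overlap and with at least 1 CPM in the higher group, up to 3 genes per list, and 19 fixed genes. Of the genes that met this rule, 94 were followed through the alternatives, and some are not reported here. Of 756 list entries, 750 matched by symbol, 3 by another name and 3 not at all. The tumours, lists and genes were chosen with earlier results of these data known, so lists are described by counts and medians beside those of all genes and have no test of their own. UTRs come from GENCODE M21, and microRNA and gene positions from RefSeq. The alternatives used DESeq2 1.42.0 and limma 3.58.1. The procedure was tested on simulated counts with 200 genes changed in EIO, the same spread for every gene and no tumour set apart. That test does not cover a tumour like EIO-744 or labels that differ from the codes.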

Additional observations from a re-analysis of the deposited data

How the results depend on the processing

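The count of 0 genes called between EIO and IO was also 0 with DESeq2 size factors, with no filter on low counts and with the 6 tumours alone. It was 138 with the DESeq2 Wald test, 3 with limma voom and sample quality weights and 1 with groups by the written labels. Leaving out 1 tumour gave 0 to 235 calls, the most without EIO-713, whose group then held EIO-744 and EIO-749. Without EIO-744, the 3 calls became 0 with DESeq2 size factors, no filter or the 5 tumours alone, 201 with DESeq2, 138 with limma voom and quality weights, and 0 to 93 when another tumour was left out. The difference from the other 3 treatments called 0 genes in each setting except DESeq2 (5) and the written labels (109), and that from EI minus I 0 except DESeq2 (55) and the written labels (1529). The cause of these shifts was not tested. Of the 94 named genes, the sign changed in 21 without EIO-744, in 19 under limma voom with quality weights and in 62 under the written labels, and in at most 7 under the other settings. None of the named genes that a setting called had changed sign; other called genes were not checked for this. Of 38 list medians, 20 stayed within 1 SD of the spread between replicates without EIO-744, 21 under limma voom with quality weights and 11 under the written labels, against 33 or more otherwise. The median of genes with a seed match stayed within that spread for the 8-base match alone (0.07). It also did so without EIO-744, where its sign changed from 0.03 to -0.06. Both spreads were computed with EIO-744 included, so they are wide where that tumour stands apart. For mitosis genes the SD was 1.57, and the move of the median from 0.21 to 0.78 counted as within it. Staying within this spread without EIO-744 therefore does not show that a median is stable. No paired analysis was possible because the numbers in the identifiers are shared by no tumours of the groups. With 3 tumours a group and 1 unlike the others, the intervals are wide, and a gene that missed the threshold is not shown to be alike in both groups.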

Other observations

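The EIO tumours without collagen excess were not alike in their immune genes. The fractalkine receptor Cx3cr1 was at 103 CPM in EIO-713 and 21.8 CPM in EIO-749, and the summed T cell markers were at 191 and 50.3 CPM. The summed antigen presentation genes were at 24105 and 10140 CPM. EIO-713 was nearest to IO-728 in composition (root-mean-square log2 difference 0.416), closer than to EIO-749 (0.479). EIO-713 is the tumour of the 6 whose code and written label agree.

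Muscle markers ran up to 23459 CPM in the other 18 tumours and collagen and matrix genes up to 18817 CPM, so EIO-744 lay within the range of the study for muscle and outside it for collagens. Its summed fibroblast markers, 142340 CPM, compare with 5328 to 8207 CPM in those 18 tumours. Its mitosis genes, at 177 CPM, lay below the lowest of them at 846 CPM.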
